A study of Mus musculus with 30 samples.

Results

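The 5 genes described here are costimulators of the tumour necrosis factor (TNF) superfamily that T cells carry. The receptors are Tnfrsf4 (OX40), Tnfrsf9 (4-1BB, also called CD137) and Tnfrsf18 (GITR), and the ligands are Tnfsf8 (CD30 ligand) and Tnfsf11 (RANK ligand). The members were chosen by name, with earlier results of these data known. A probe set was used if it was annotated to exactly 1 of these symbols, and where a gene had several, the brightest by its mean on the 30 arrays was kept. All 5 genes had such a probe set, 8 probe sets in all, among 17097 genes on 45118 probe sets. All 5 passed the filter on low values in CD4+ T cells, and 3 of 5 (the receptors) passed it in CD11c+ cells.

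The samples were CD4+ T cells and CD11c+ cells of DO11.10 RAG2-/- BALB/c mice aged 8 to 10 weeks, profiled on 30 microarrays, 3 for each of 10 groups. All these mice, controls included, carry the DO11.10 transgene, a T cell receptor for a peptide of ovalbumin (OVA), and lack RAG2, which is needed to rearrange antigen receptor genes, so their T cells share 1 specificity and mature B cells are not expected. The groups of each cell type were primed mice given abatacept at 10 mg/kg, orally tolerised mice given OVA in the drinking water, primed mice given control IgG at 10 mg/kg, mice primed by subcutaneous OVA (100 micrograms) with complete Freund's adjuvant, and unimmunised mice. The abatacept and IgG groups had received the same priming as the primed group. Abatacept, a fusion of the CTLA-4 extracellular domain with an IgG Fc part, covers CD80 and CD86 on antigen-presenting cells and thereby keeps CD28 on T cells from being engaged. Isolation was on day 10 after immunisation. The CD4+ fraction was taken from axillary nodes of abatacept, IgG and primed mice, from mesenteric nodes of tolerised mice and from nodes and spleen together of unimmunised mice. Tissue and treatment cannot be told apart where both differ. For the CD11c+ fraction nodes and spleen were combined in all 5 groups. Both fractions were stated to be over 90% pure, and the labels do not say whether cells of several mice were pooled.

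OX40, 4-1BB and GITR are low on resting conventional T cells and rise after the T cell receptor is engaged, and their signals through TRAF adaptors to NF-kB prolong the survival and division of T cells that CD28 has already helped to start. GITR and OX40 are also carried at high levels by regulatory T cells. The 2 ligands work in the other direction: CD30 ligand on an activated T cell binds CD30 on other lymphocytes, and RANK ligand binds RANK on dendritic cells, whose survival it supports, and on osteoclast precursors. 4-1BB can also be made by dendritic cells and other myeloid cells.

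In the mouse genome (GRCm38.p6, RefSeq) the 3 receptor genes and Tnfsf8 lie on chromosome 4 and Tnfsf11 on chromosome 14. Tnfrsf4 spans chr4:156013595-156016613 and Tnfrsf18 spans chr4:156026322-156028894, 9709 bases from the end of one to the start of the other. Tnfrsf9 spans chr4:150920155-150946104, Tnfsf8 chr4:63831202-63861508 and Tnfsf11 chr14:78277446-78308043. RefSeq promoter windows, 250 bases before to 50 bases after a start, were matched by symbol for all 5 genes, with 2 starts for Tnfrsf9. Those of Tnfrsf4, of both Tnfrsf9 starts and of Tnfsf11 are shown because Tnfrsf9 moved against the other 2 genes under abatacept in CD4+ T cells. They are written 5′ to 3′ on the gene's strand, and capitals mark the letters GGAAA (the NFAT core), TGANTCA (AP-1) or the NF-kB consensus, searched on both strands.
Tnfrsf4, chr4:156013445-156013744, + strand: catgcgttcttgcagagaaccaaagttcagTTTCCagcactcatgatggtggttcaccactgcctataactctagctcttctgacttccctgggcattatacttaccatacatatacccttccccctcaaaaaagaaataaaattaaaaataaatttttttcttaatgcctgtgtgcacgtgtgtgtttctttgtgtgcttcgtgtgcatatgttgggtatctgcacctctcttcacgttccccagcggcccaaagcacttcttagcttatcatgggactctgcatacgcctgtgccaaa
Tnfrsf9, first start, chr4:150919905-150920204, + strand: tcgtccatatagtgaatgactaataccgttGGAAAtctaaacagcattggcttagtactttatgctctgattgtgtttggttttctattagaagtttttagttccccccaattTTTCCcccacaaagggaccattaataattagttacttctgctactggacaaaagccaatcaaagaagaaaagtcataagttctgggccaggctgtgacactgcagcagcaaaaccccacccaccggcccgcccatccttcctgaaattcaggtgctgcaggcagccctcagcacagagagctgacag
Tnfrsf9, second start, chr4:150927749-150928048, + strand: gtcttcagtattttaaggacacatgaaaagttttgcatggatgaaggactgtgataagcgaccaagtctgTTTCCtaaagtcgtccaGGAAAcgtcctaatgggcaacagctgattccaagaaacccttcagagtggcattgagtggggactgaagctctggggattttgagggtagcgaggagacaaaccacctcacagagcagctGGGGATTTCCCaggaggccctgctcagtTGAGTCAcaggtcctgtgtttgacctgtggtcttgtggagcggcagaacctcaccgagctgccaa
Tnfsf11, chr14:78307994-78308293, - strand: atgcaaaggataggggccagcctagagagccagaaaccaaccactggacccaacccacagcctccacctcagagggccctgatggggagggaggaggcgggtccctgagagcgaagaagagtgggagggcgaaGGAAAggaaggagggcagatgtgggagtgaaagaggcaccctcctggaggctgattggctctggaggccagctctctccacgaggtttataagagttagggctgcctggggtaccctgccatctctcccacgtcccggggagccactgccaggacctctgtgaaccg
The second Tnfrsf9 window held 1 AP-1 match and 2 overlapping NF-kB matches, the first of which begins 43 bases before the start and covers a GGAAA core read on the other strand. None of the other 5 windows of the 5 genes held either of these 2 motifs, and all 6 held the NFAT core. Among all 32851 promoter windows of the same length, 7.81% held the AP-1 letters, 4.51% the NF-kB consensus and 61.3% the NFAT core. Both the AP-1 and the NF-kB motif were also found for Tnfrsf8 (CD30), the partner of Tnfsf8, which passed the filter in neither fraction. These matches describe the sequence and are not evidence of binding, and the arrays do not tell the 2 starts of Tnfrsf9 apart. The windows shown were picked by the array result, and a link between the motifs and that result was not tested.

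Values are log2 intensities, in which 1 unit is a 2-fold difference, and the array medians ran from 4.46 to 4.54. Levels of different genes come from different probes and are not compared. Arrays of a group correlated at 0.983 to 0.995 over all probe sets. In the CD4+ fraction 0 of 11 T cell markers averaged at or below the array medians in any group. All 10 dendritic cell markers measured averaged above them in the CD11c+ fraction. So did all 10 monocyte and macrophage markers in each CD11c+ group. Of 7 neutrophil and 6 erythroid markers, all but Elane and Rhag did too. Of 11 T cell markers only 2 to 4, by group, averaged at or below the medians in that fraction. Among the CD4+ arrays those of unimmunised mice stood apart. In primed CD4+ arrays 6 of 6 erythroid, 7 of 7 neutrophil and 10 of 10 monocyte and macrophage markers tested were lower than in these. Higher in primed arrays were 10 of 11 T cell markers, with a median difference of 1.06 log2 units. The Y-linked gene Eif2s3y was high (5.92 to 8.95) in CD4+ tolerised, CD4+ primed, CD11c+ IgG and CD11c+ primed arrays and low (2.37 to 2.84) in the other 6 groups. The sex of the mice is not in the labels used here. Xist, a transcript of female cells, averaged 11.11 to 11.43 in those 6 groups. Its mean was 4.50 for primed CD11c+ cells and 6.17 for tolerised CD4+ T cells. It was 10.15 for primed CD4+ T cells and 8.73 for CD11c+ cells under IgG, although Eif2s3y was high there too. Whether samples mixed cells of male and female mice was not tested. In bulk samples, fewer cells that carry a transcript and less of it per cell cannot be told apart.

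**Figure D1:**
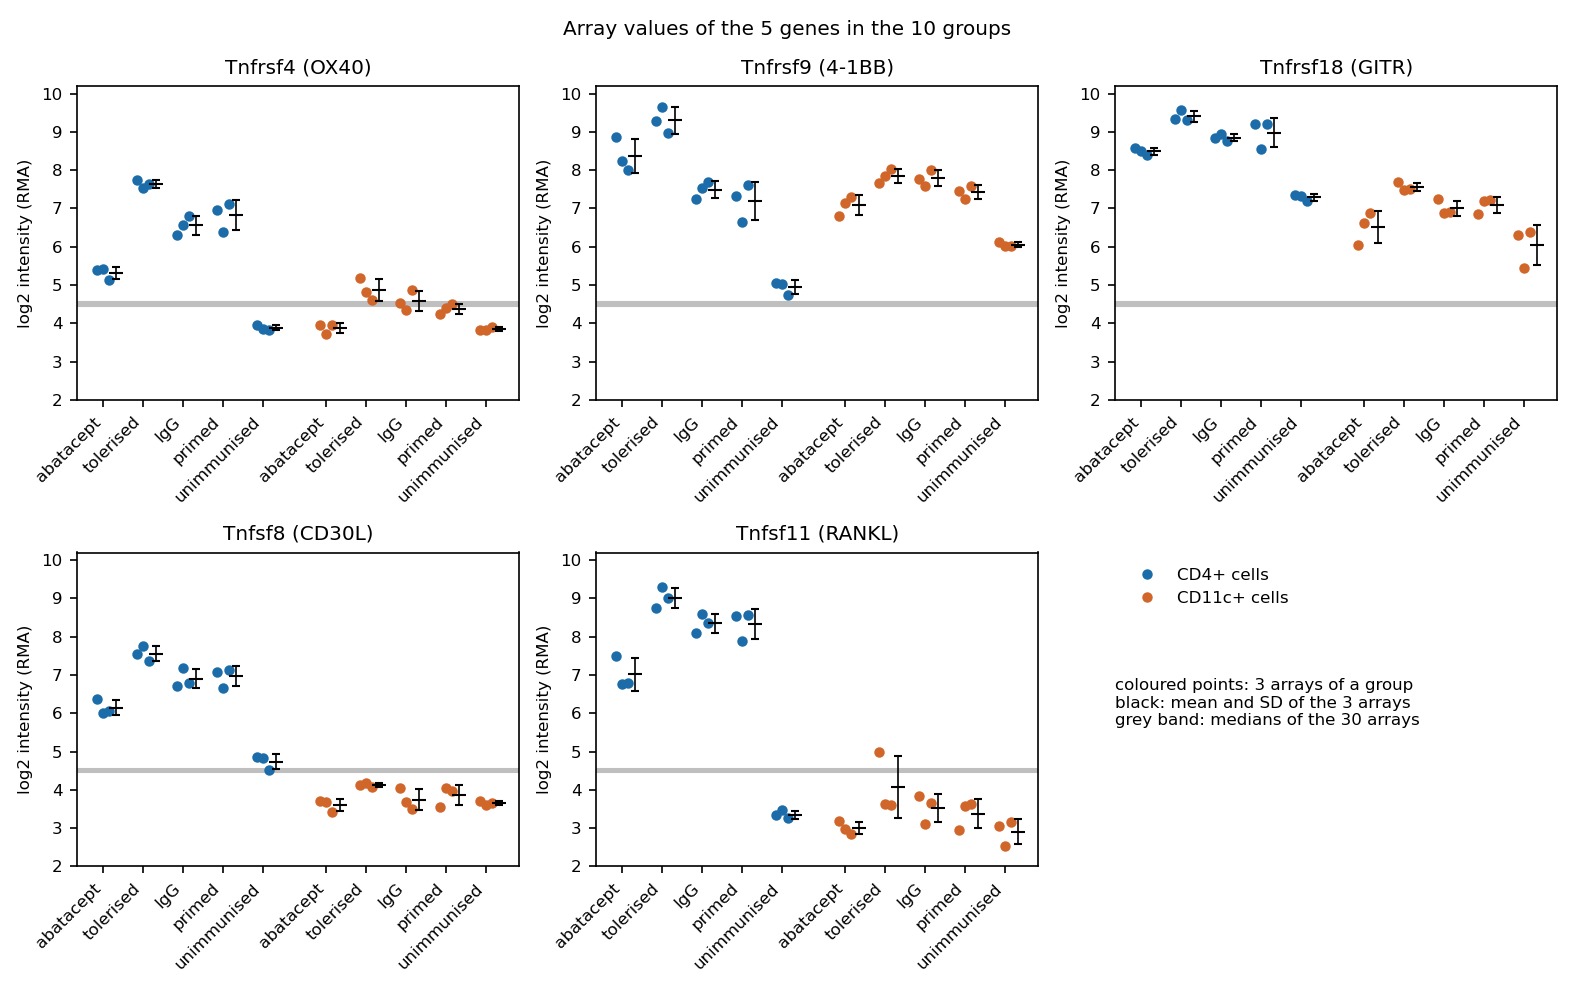
Log2 intensity (vertical axis, RMA) of the 5 genes on each array of the 10 groups (horizontal axis, CD4+ groups left in blue, CD11c+ groups right in orange), with the mean and SD of 3 arrays in black and the medians of the 30 arrays as a grey band. In CD4+ T cells the tolerised arrays are highest and the unimmunised arrays lowest for each gene, and abatacept arrays lie below IgG arrays except for Tnfrsf9, where they lie above.

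Tnfrsf4 in CD4+ T cells was highest after oral tolerisation and lower under abatacept than under IgG. Its log2 intensity was 5.39, 5.43 and 5.14 on the abatacept arrays, 7.74, 7.54 and 7.64 on the tolerised arrays, and 6.31, 6.56 and 6.82 on the IgG arrays. It was 6.96, 6.39 and 7.13 on the primed arrays, against 3.95, 3.85 and 3.84 on the unimmunised arrays. The IgG and primed arrays overlapped and no other groups of CD4+ arrays did. All 3 unimmunised arrays lay below their array medians, so folds against them are not exact.

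Tnfrsf9 followed another order. It read 8.86, 8.24 and 7.996 on the abatacept arrays of CD4+ T cells, 9.29, 9.66 and 8.96 on the tolerised arrays, and 7.26, 7.53 and 7.69 on the IgG arrays. The primed arrays gave 7.33, 6.65 and 7.60 and the unimmunised arrays 5.06, 5.03 and 4.73. The abatacept arrays were thus second to the tolerised ones and all above the IgG and primed arrays, which overlapped each other.

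Tnfrsf18 was well above the array medians in every group. CD4+ T cells had 8.58, 8.49 and 8.39 under abatacept, 9.34, 9.58 and 9.30 after tolerisation, and 8.85, 8.94 and 8.76 under IgG. Primed mice had 9.20, 8.55 and 9.21, against 7.36, 7.32 and 7.18 in unimmunised mice. The second primed array was the lowest of its group and lay within the range of the abatacept arrays, so these 2 groups overlapped, while the abatacept and IgG arrays did not.

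The CD30 ligand gene Tnfsf8 had the order of Tnfrsf4. It was 6.38, 6.001 and 6.07 under abatacept, 7.55, 7.75 and 7.36 after tolerisation, and 6.72, 7.19 and 6.79 under IgG. Its values were 7.08, 6.66 and 7.14 in primed mice, against 4.87, 4.84 and 4.51 in unimmunised mice. No abatacept array reached an IgG or primed array.

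Tnfsf11, the RANK ligand gene, had the widest range of the 5. CD4+ T cells gave 7.51, 6.76 and 6.78 under abatacept, 8.75, 9.29 and 9.01 after tolerisation, and 8.09, 8.58 and 8.37 under IgG. Primed arrays gave 8.54, 7.89 and 8.56, whereas unimmunised arrays gave 3.33, 3.46 and 3.26, below their array medians. The lone high abatacept array stayed below all IgG and primed arrays. The other Tnfsf11 probe set lay below the array medians on every CD4+ array but 1, a tolerised one.

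Abatacept against control IgG asks what blocking CD80 and CD86 during priming does to these genes. In CD4+ T cells from the same lymph nodes, Tnfrsf4, Tnfsf8 and Tnfsf11 were lower under abatacept and Tnfrsf9 was higher, while Tnfrsf18 did not pass the test. Calls here and below rest on limma and an adjusted p (Benjamini-Hochberg, over all genes tested) under 0.05. Of 10322 genes, 13.4% were called lower and 3.33% higher under abatacept in CD4+ T cells, against 3 and 1 of the 5 members. Tnfsf11 averaged 7.02 ± 0.42 under abatacept and 8.34 ± 0.25 under IgG (SD, n = 3 each), a log2 difference of -1.33 (SE 0.22, adjusted p = 0.0014), or 2.51-fold lower. Tnfrsf4 averaged 5.32 ± 0.15 and 6.56 ± 0.26 in the same order of groups, a difference of -1.24 (SE 0.17, adjusted p = 0.00026), or 2.36-fold lower. For Tnfsf8 the means were 6.15 ± 0.20 under abatacept and 6.90 ± 0.25 under IgG, a difference of -0.75 (SE 0.17, adjusted p = 0.0084). Tnfrsf18 had 8.49 ± 0.10 under abatacept and 8.85 ± 0.09 under IgG, a difference of -0.36 with a 95% interval of -0.68 to -0.04 (adjusted p = 0.12). A fit on these 2 groups alone called it (adjusted p = 0.042).

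Tnfrsf9 averaged 8.37 ± 0.44 under abatacept and 7.49 ± 0.21 under IgG, a difference of 0.88 (SE 0.26, adjusted p = 0.036), or 1.83-fold higher, and 3 of 3 abatacept arrays exceeded every IgG array. The next brightest Tnfrsf9 probe set moved alike, with 7.26, 6.79 and 6.38 under abatacept against 5.62, 6.11 and 5.85 under IgG, a difference of 0.95 (adjusted p = 0.032 among all probe sets). The call on Tnfrsf9 was weak: its adjusted p was 0.051 on the 2 groups alone and 0.059 without the CD4+ unimmunised arrays. Leaving out 1 array at a time ended the call for each of 3 IgG arrays and for abatacept replicates 1 and 2, with differences between 0.63 and 1.06. Of the markers of other cells tested beside it, none of the erythroid, neutrophil, macrophage or mast cell genes was called. Higher under abatacept were 3 of 5 natural killer and innate lymphoid, 1 of 8 dendritic cell and 1 of 1 B cell markers. Of 16 T cell activation markers 5 were higher and 4 lower, and the part of these in the member differences was not tested. The summed level of the natural killer and innate lymphoid list was 9.49 to 9.72 under abatacept and 8.31 to 8.38 under IgG (log2 of the sum), and its part in the member differences was not tested. Eif2s3y was low in both groups (2.41 to 2.76 under abatacept and 2.42 to 2.65 under IgG).

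Control IgG against priming alone compares primed mice with and without the control antibody. None of the 5 members was called in CD4+ T cells, where 0.0872% of genes were. The largest member difference was 0.30 for Tnfrsf9, with a 95% interval of -0.27 to 0.86 (adjusted p = 0.80). That of Tnfrsf4 was -0.27, with an interval of -0.63 to 0.10. At an unadjusted p under 0.05 none of the 5 members would have been called either. Eif2s3y differed between these groups, at 2.42 to 2.65 under IgG and 8.50 to 8.82 in primed mice.

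Oral tolerance against priming compares T cells that met OVA through the gut with T cells that met it with adjuvant. In CD4+ T cells Tnfrsf9, Tnfrsf4 and Tnfsf8 were higher after tolerisation, 3 of 5 members, against 6.24% of genes tested. Tnfrsf9 averaged 9.30 ± 0.35 after tolerisation and 7.19 ± 0.49 in primed mice, a difference of 2.11 (SE 0.26, adjusted p = 0.00017), or 4.32-fold higher. Tnfrsf4 was higher by 0.82 (SE 0.17, adjusted p = 0.006), and Tnfsf8 by 0.59 (SE 0.17, adjusted p = 0.031). Tnfsf11 and Tnfrsf18 differed by 0.68 (adjusted p = 0.059) and 0.42 (adjusted p = 0.079) and were not called. With quantile normalization of the values again, these 2 genes were just called (adjusted p = 0.044 for Tnfsf11 and 0.038 for Tnfrsf18). The Tnfsf8 call was lost on the 2 groups alone (adjusted p = 0.074), and without primed replicate 2, tolerised replicate 1 or tolerised replicate 2 (adjusted p up to 0.12). The 2 groups came from mesenteric and axillary lymph nodes, and in the tolerised arrays 5 of 5 mast cell and basophil, 4 of 5 natural killer and innate lymphoid, 5 of 8 dendritic cell and 4 of 10 monocyte and macrophage markers tested were higher. The mean log2 level of the mast cell and basophil list was 4.52 to 6.17 in tolerised and 3.21 to 3.28 in primed arrays, and the part of these cells in the member differences was not tested. T cell markers were level, with 1 of 11 called lower and a median difference of -0.02. Of 16 T cell activation markers 11 were higher and 1 was lower, with a median difference of 1.03. The part of this list in the member differences was not tested either. Xist averaged 6.17 in tolerised and 10.15 in primed CD4+ arrays, and what this difference contributes was not tested.

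Against unimmunised mice all 5 members were higher in CD4+ T cells in each of the 3 immunised or tolerised groups tested. The 3 comparisons share the 3 unimmunised arrays. For abatacept-treated mice 23.4% of genes were called higher, for tolerised mice 20.3% and for primed mice 23.3%. Tnfsf11 was higher by 3.67 under abatacept, 5.67 after tolerisation and 4.98 after priming, fitted values against arrays below their medians. Tnfrsf9 was higher by 3.42 under abatacept, 4.36 after tolerisation and 2.25 after priming. For Tnfrsf4 the differences were 1.44, 3.76 and 2.95 in the same order of groups. The smallest differences belonged to Tnfrsf18, at 1.20, 2.12 and 1.70, and Tnfsf8 lay between at 1.41, 2.82 and 2.22. The largest adjusted p among these 15 differences was 1.4e-05. Of 11 T cell markers 11 were higher under abatacept, 9 after tolerisation and 10 after priming, with median differences of 1.08, 0.95 and 1.06. Of 16 T cell activation markers 15, 16 and 13 were higher in the same order. The part of both lists in the member differences was not tested. In the primed and tolerised comparisons Eif2s3y also differed, whereas it was low in both abatacept and unimmunised arrays.

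Abatacept was also set against oral tolerance. All 5 were lower under abatacept than after tolerisation in CD4+ T cells, where 15.8% of genes were. Tnfrsf4 differed by -2.32 (SE 0.17, adjusted p = 1.4e-06), or 5.01-fold lower, and Tnfsf11 by -1.999, or 3.998-fold lower (adjusted p = 3.9e-05). The differences were -1.41 for Tnfsf8 (adjusted p = 6.3e-05), -0.94 for Tnfrsf9 (adjusted p = 0.02) and -0.92 for Tnfrsf18 (adjusted p = 0.00072). That of Tnfrsf9 was not called on the 2 groups alone (adjusted p = 0.068) or without abatacept replicate 2, abatacept replicate 3, tolerised replicate 1 or tolerised replicate 2 (adjusted p up to 0.089). Tissue, Eif2s3y and the mast cell and basophil list (3.34 to 3.63 under abatacept and 4.52 to 6.17 after tolerisation) also differed between these groups. Lower under abatacept too were 6 of 10 monocyte and macrophage, 5 of 8 dendritic cell, 3 of 5 natural killer and innate lymphoid and 11 of 16 T cell activation markers. The part of all these in the member differences was not tested.

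**Figure D2:**
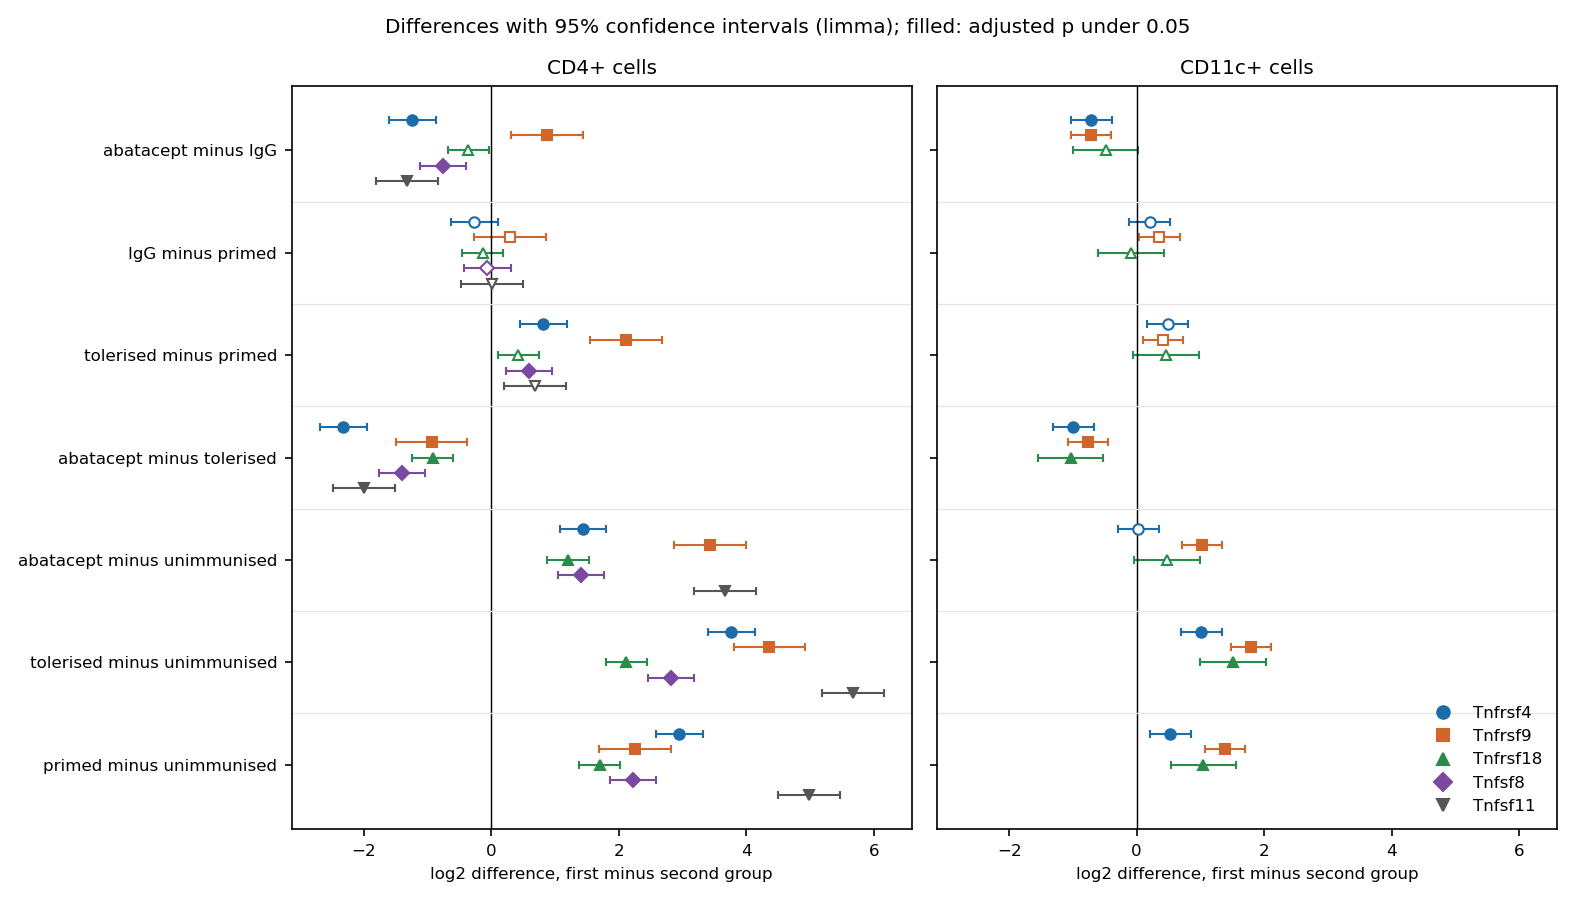
Log2 difference, first minus second group (horizontal axis), of each member in 7 comparisons (rows) in CD4+ T cells (left) and CD11c+ cells (right), with 95% confidence intervals from limma. Filled markers had an adjusted p under 0.05, and Tnfsf8 and Tnfsf11 are absent on the right because they did not pass the filter in CD11c+ cells. Under abatacept against IgG, Tnfrsf9 lies at 0.88 on the left and at -0.71 on the right.

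In CD11c+ cells the receptors were measured and the ligands were at or near background. Tnfsf8 lay between 3.41 and 4.18 on all 15 arrays and Tnfsf11 between 2.52 and 4.998, with 1 tolerised array above its array median. Tnfrsf9 and Tnfrsf18 lay above the array medians on 15 of 15 arrays. Tnfrsf9 read 6.79, 7.15 and 7.30 under abatacept, 7.65, 7.86 and 8.03 after tolerisation, and 7.78, 7.59 and 8.01 under IgG. Primed arrays gave 7.47, 7.24 and 7.60, against 6.13, 6.01 and 6.01 in unimmunised mice. The abatacept arrays lay between the unimmunised arrays and those of the IgG and tolerised groups, touching only the primed range. Tnfrsf18 ranged from 6.05 to 6.87 under abatacept, 7.48 to 7.69 after tolerisation, 6.88 to 7.24 under IgG, 6.86 to 7.23 in primed and 5.45 to 6.38 in unimmunised mice. Tnfrsf4 passed the filter through the tolerised arrays, 3 of 3 above their medians, and the IgG arrays, 2 of 3, and lay below the medians on all abatacept, primed and unimmunised arrays. It was at 3.72 to 3.96 under abatacept, 4.60 to 5.17 after tolerisation, 4.34 to 4.87 under IgG, 4.25 to 4.49 in primed and 3.81 to 3.91 in unimmunised mice.

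Abatacept against IgG lowered 2 of the 3 members tested in CD11c+ cells, against 8.86% of 10203 genes. Tnfrsf9 averaged 7.08 ± 0.26 under abatacept and 7.79 ± 0.21 under IgG, a difference of -0.71 (SE 0.15, adjusted p = 0.0073), or 1.64-fold lower. The next brightest Tnfrsf9 probe set gave -0.63 and was not called (adjusted p = 0.13 among all probe sets). Tnfrsf4 averaged 3.87 ± 0.14 and 4.58 ± 0.27 in the same order, also a difference of -0.71 (adjusted p = 0.0077). Since all its abatacept arrays lay below the medians, this is not an exact size. Tnfrsf4 passed the filter through tolerised and IgG arrays alone, so its lower call was favoured in advance. A count that includes it is not a result about the members. Tnfrsf18 differed by -0.48 with an interval of -0.999 to 0.03 (adjusted p = 0.20). Averaging all probe sets of a gene left the Tnfrsf9 difference at -0.41 (adjusted p = 0.052). The dimmest Tnfrsf9 probe set, below the medians on all arrays, enters that average. With Eif2s3y as a covariate no gene at all was called. Eif2s3y was low under abatacept (2.37 to 2.72) and high under IgG (5.92 to 8.76), so the covariate and the groups cannot be told apart. T cell markers averaged 5.99 to 6.14 under abatacept and 6.33 to 6.63 under IgG in this fraction, and 1 of 9 tested was called lower. Of the dendritic cell markers 7 of 10 were lower, with a mean log2 level of 8.68 to 8.82 under abatacept and 9.06 to 9.31 under IgG. Of the monocyte and macrophage markers 6 of 10 were higher, with 10.17 to 10.33 under abatacept and 9.48 to 9.98 under IgG. The salivary transcripts Amy1 and Bpifa2 were also uneven on the CD11c+ arrays: Amy1 read 2.63, 2.79 and 7.69 under abatacept and 5.23, 11.31 and 11.43 under IgG, in rising order. In a fit with their averaged level as covariate the differences were -0.64 for Tnfrsf9 (adjusted p = 0.039) and -0.76 for Tnfrsf4 (adjusted p = 0.024). The part of the cell marker lists in the result was not tested.

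Against unimmunised mice the CD11c+ receptors were higher after tolerisation and after priming, and only Tnfrsf9 was called under abatacept. Of the 3 members tested, 3 were called higher after tolerisation, where 31.9% of genes were, 3 after priming, where 25.5% were, and 1 under abatacept, where 2.1% were. The counts after tolerisation and after priming include Tnfrsf4, whose primed and unimmunised arrays all lay below the array medians. Tnfrsf4 passed the filter through tolerised and IgG arrays alone, so its call after tolerisation was favoured in advance. Counts that include it are not a result about the members. Tnfrsf9 was higher by 1.03 under abatacept (adjusted p = 0.0036), 1.80 after tolerisation (adjusted p = 1.9e-06) and 1.38 after priming (adjusted p = 2.2e-05). Tnfrsf18 was higher by 1.51 after tolerisation and 1.05 after priming (adjusted p = 0.00019 and 0.0038), and its difference under abatacept was 0.48 (adjusted p = 0.31). For Tnfrsf4 the fitted difference after tolerisation was 1.02 (adjusted p = 0.00011), against a group at background, and its call after priming, between groups below the medians, ended without primed replicate 3 (adjusted p = 0.052). The T cell marker list moved in the same order in this fraction, with mean log2 levels of 5.99 to 6.14 under abatacept, 6.61 to 7.01 after tolerisation, 6.43 to 6.64 in primed and 5.67 to 6.36 in unimmunised arrays. Neutrophil markers were higher too, 6 of 6 after tolerisation and after priming, as were 9 of 10 dendritic cell and 4 of 5 natural killer and innate lymphoid markers, and 9 of 10 monocyte and macrophage markers were lower. The part of these lists in the member differences was not tested. Eif2s3y differed between primed and unimmunised arrays, and with it as a covariate none of the 3 members was called in that comparison and the Tnfrsf4 difference became -0.32.

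Tolerisation against priming called none of the 3 members in CD11c+ cells, where 2.84% of genes were called. Eif2s3y was 2.40 to 2.84 on tolerised and 8.53 to 8.64 on primed arrays, and with it as a covariate 0 genes were called. Differences were 0.49 for Tnfrsf4 (adjusted p = 0.10), 0.46 for Tnfrsf18 (adjusted p = 0.34) and 0.41 for Tnfrsf9 (adjusted p = 0.16), and limma's unadjusted p was under 0.05 for Tnfrsf4 and Tnfrsf9. IgG against priming also called none of the 3, where 0.0196% of genes were called, and Tnfrsf9 alone had an unadjusted p under 0.05 (0.029). Abatacept against tolerisation lowered all 3, where 20.9% of genes were lower. The differences were -1.04 for Tnfrsf18 (adjusted p = 0.004), -0.99 for Tnfrsf4 (adjusted p = 0.00021) and -0.77 for Tnfrsf9 (adjusted p = 0.0012), with all abatacept arrays of Tnfrsf4 below the medians. Tnfrsf4 passed the filter through tolerised and IgG arrays alone, so its lower call was favoured in advance. The count of 3 is thus not a result about the members. The next brightest Tnfrsf9 probe set gave -0.40 and was not called (adjusted p = 0.26 among all probe sets). Lower as well were 6 of 9 T cell, 7 of 10 dendritic cell and 6 of 6 neutrophil markers, and 9 of 10 monocyte and macrophage markers were higher, with a median of 1.49. Their part in the member differences was not tested.

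Since Tnfsf8 and Tnfsf11 were tested between fractions only through their CD4+ arrays, and Tnfrsf4 was at or near background in CD11c+ cells, the sizes given for these 3 genes are fitted values and not exact. Set against each other, the CD4+ fraction carried more of the ligand transcripts and of Tnfrsf18 than the CD11c+ fraction, and Tnfrsf9 depended on the condition. Tnfsf8 was higher in CD4+ than in CD11c+ cells in 5 of 5 groups, by 1.08 in unimmunised mice and by 2.55 to 3.43 in the others. Tnfrsf18 was higher in 5 of 5 groups, by 1.24 to 1.97. Tnfsf11 and Tnfrsf4 were higher in 4 of 5 groups, by 4.01 to 4.96 and 1.45 to 2.78, and in unimmunised mice they differed by 0.44 (adjusted p = 0.20) and 0.03 (adjusted p = 0.88). Tnfrsf9 was higher in CD4+ cells under abatacept by 1.29 (adjusted p = 1.7e-05) and after tolerisation by 1.46 (adjusted p = 4.3e-06). In unimmunised mice it was lower in CD4+ than in CD11c+ cells by 1.11 (adjusted p = 0.00012), with 4.94 ± 0.18 against 6.05 ± 0.07. Under IgG and after priming it was not called, at -0.30 (95% interval -0.76 to 0.16) and -0.24 (-0.70 to 0.22). Members called higher in CD4+ cells numbered 5 of 5 under abatacept (33.1% of 10794 genes), 5 after tolerisation (28.2%), 4 under IgG (35.2%), 4 after priming (34.2%) and 2 in unimmunised mice (38.7%), where Tnfrsf9 was 1 of the 27.8% called lower. Tnfsf8 and Tnfsf11 passed the filter through their CD4+ arrays alone, so their calls on the CD4+ side were favoured in advance. Counts that include them are not a result about the members. Tissue differed between the fractions in every group but the unimmunised. Eif2s3y differed too, averaging 8.89 in CD4+ and 2.62 in CD11c+ cells of tolerised mice, and 2.51 and 7.63 under IgG. The part of tissue and of Eif2s3y in these differences was not tested.

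The response of a gene in the 2 fractions was compared by an interaction test over all 30 arrays. Abatacept against IgG gave 0.88 for Tnfrsf9 in the CD4+ and -0.71 in the CD11c+ fraction, a difference of 1.59 (SE 0.31, adjusted p = 0.0012), the 1 member of 5 called there, where 4.99% of genes were called in that direction. The test of the difference kept its call under each alternative run, among which Eif2s3y as a covariate was not (1.10 to 1.77), but its parts did not: the CD4+ call was lost on the 2 groups alone, and the CD11c+ call with the mean of probe sets or the Eif2s3y covariate. Eif2s3y was low in both CD4+ groups and differed between the CD11c+ groups. Tnfrsf4 and Tnfrsf18 had interaction values of -0.53 and 0.12 (adjusted p = 0.14 and 0.83). The tolerised against primed difference of Tnfrsf9 was larger in CD4+ T cells by 1.70 (adjusted p = 0.00089), again 1 of 5 members, where 4.95% of genes were. Eif2s3y was low in tolerised and high in primed arrays of the CD11c+ fraction and high in both in the CD4+ fraction. Xist differed in the CD4+ fraction too, averaging 6.17 in tolerised and 10.15 in primed arrays. For tolerisation and for priming against no immunisation 4 of 5 members had a larger difference in CD4+ T cells, where 16.2% and 14.7% of genes did. Of these, Tnfsf8 and Tnfsf11 were below the array medians on 15 and 14 of 15 CD11c+ arrays, so a response there could not be measured, and their values describe the CD4+ change. Tnfrsf9, above the medians on all 30 arrays, differed by 2.57 for tolerisation (adjusted p = 4.1e-07) and by 0.87 for priming (adjusted p = 0.029), a call that ended in 5 of 12 fits without 1 array. Tnfrsf18 was not called, at 0.61 (adjusted p = 0.092) and 0.65 (adjusted p = 0.081). Between tolerised and unimmunised arrays Eif2s3y differed in the CD4+ fraction alone, and its part in the interactions was not tested.

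**Figure D3:**
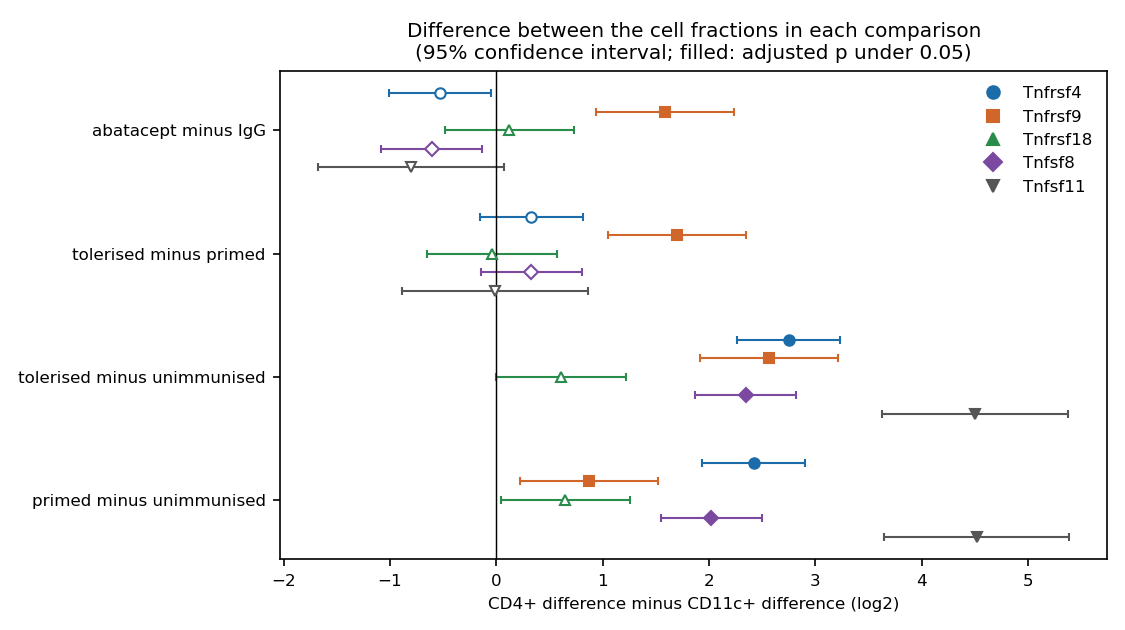
Difference of each member in CD4+ T cells minus its difference in CD11c+ cells (horizontal axis, log2) for 4 comparisons (rows), with 95% confidence intervals from limma and filled markers for an adjusted p under 0.05. Tnfrsf9 is the 1 member called under abatacept against IgG (1.59) and under tolerised against primed (1.70), and Tnfsf8 and Tnfsf11 were at background in CD11c+ cells.

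Of the 6 binding partners of the members, Tnfsf18 (GITR ligand) had no probe set with 1 symbol, and Tnfsf9 (4-1BB ligand), Tnfrsf8 (CD30) and Tnfrsf11b (osteoprotegerin, a decoy for RANK ligand) passed the filter in neither fraction. Tnfsf4 (OX40 ligand) passed it in CD4+ T cells. Like Tnfrsf9 it was called higher both under abatacept against IgG and after tolerisation against priming. It read 7.04, 6.18 and 6.20 under abatacept, 6.90, 7.74 and 5.93 after tolerisation and 4.97, 4.46 and 4.32 under IgG. Primed arrays gave 4.69, 4.44 and 4.80, and unimmunised arrays 3.73, 3.66 and 3.64. It was higher under abatacept than under IgG by 1.89 (SE 0.36, adjusted p = 0.003), and higher after tolerisation than after priming by 2.22 (SE 0.36, adjusted p = 0.0012). With 1 of 3 IgG and 2 of 3 primed arrays above their medians, the sizes are not exact. Its receptor Tnfrsf4 was 2.36-fold lower in the first of these comparisons and 1.76-fold higher in the second. Abatacept and tolerised arrays overlapped (difference -0.38, interval -1.15 to 0.39). In CD11c+ cells Tnfsf4 lay between 3.54 and 4.76, below the array medians on all but 2 tolerised arrays, so no difference between the fractions is given for it.

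Tnfrsf11a (RANK), the receptor of Tnfsf11, passed the filter in CD11c+ cells. It averaged 4.98 ± 0.12 under abatacept, 4.67 ± 0.24 after tolerisation, 5.10 ± 0.37 under IgG, 4.63 ± 0.26 in primed and 5.01 ± 0.12 in unimmunised mice, close to the array medians. No comparison between CD11c+ groups called it, the smallest adjusted p being 0.10, though with the mean of its probe sets it was called lower after priming and after tolerisation than in unimmunised mice (-0.36 and -0.30, adjusted p = 0.019 and 0.037). On all CD4+ arrays it lay below the array medians, and it was tested between fractions only through its CD11c+ arrays. Lower values in CD4+ cells in 5 of 5 groups, by 0.86 to 1.48, were thus favoured by the filter and are not exact sizes.

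**Figure D4:**
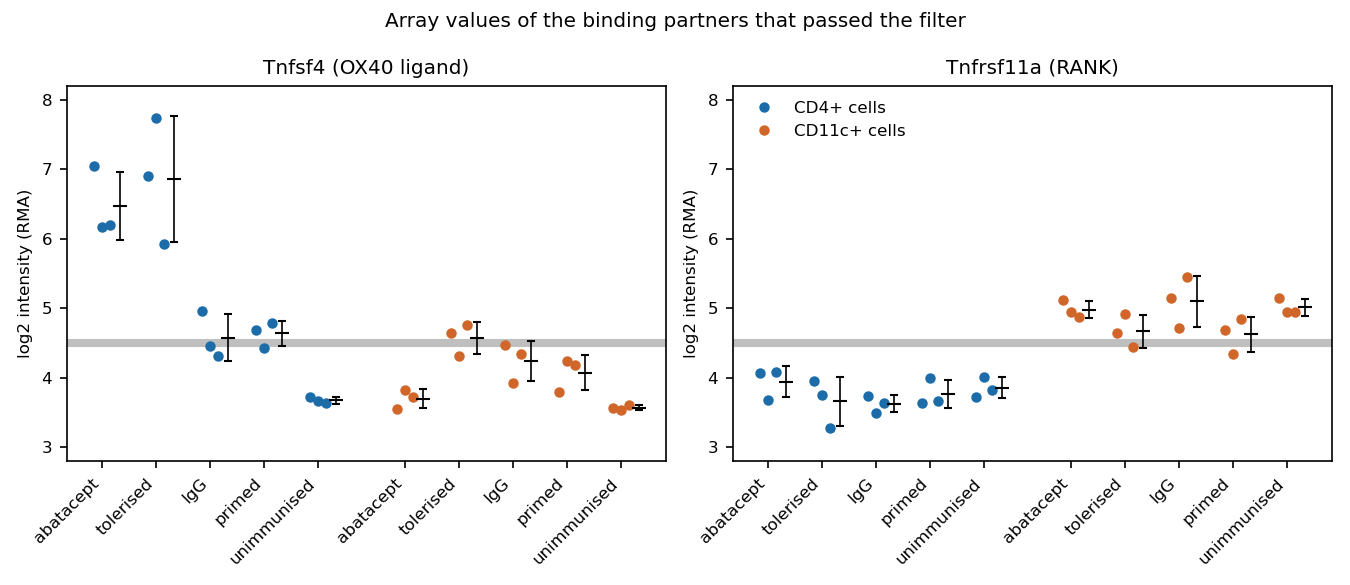
Log2 intensity (vertical axis, RMA) of Tnfsf4 and Tnfrsf11a on each array of the 10 groups (horizontal axis), with the mean and SD of 3 arrays in black and the array medians as a grey band. In CD4+ T cells Tnfsf4 lies between 5.93 and 7.74 on abatacept and tolerised arrays and at or below 4.97 on the others. Tnfrsf11a lies below the array medians on all CD4+ arrays and near or above them on CD11c+ arrays.

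Other members of the superfamily were listed with earlier results of these data known. In CD4+ T cells under abatacept against IgG, 1 of 10 other TNF ligands tested was higher and 3 were lower, where 3.33% and 13.4% of all genes were. Their median was -0.24 against -0.07 for all genes. Tnfsf14 (LIGHT), a ligand of HVEM and the lymphotoxin beta receptor, averaged 5.31 under abatacept and 7.27 under IgG, a difference of -1.96 (adjusted p = 6.1e-08), and Fasl (Fas ligand) was higher by 0.996 (adjusted p = 0.015, but 0.061 without IgG replicate 2). Of 14 other TNF receptors tested 1 was called higher, Tnfrsf21, whose call ended without the filter (adjusted p = 0.069), and none lower. After tolerisation against priming 2 of the 10 ligands were higher and 3 lower, where 1514 of 10322 genes were called. Cd40lg (CD40 ligand), which licenses dendritic cells, averaged 6.63 after tolerisation and 8.50 after priming, a difference of -1.87 (adjusted p = 1.8e-05).

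The TRAF adaptors and NF-kB regulators that carry the receptors' signals were tested as 22 genes in both fractions. Under abatacept against IgG in CD4+ T cells 1 was higher and 4 were lower, where 3.33% and 13.4% of all genes were. Among the lower were Nfkbie and Tnip1, inhibitors of NF-kB signalling, at -0.48 (adjusted p = 0.0012) and -0.41 (adjusted p = 0.0013). In CD11c+ cells 10 of 22 were lower, where 8.86% of all genes were, and none higher. Their median was -0.36 against -0.02 for all genes. Traf1, an adaptor of several of these receptors, averaged 9.08 under abatacept and 10.11 under IgG there, and Relb, a subunit of the non-canonical NF-kB pathway, 6.18 and 7.28 in the same order. With the Eif2s3y covariate, which cannot be told apart from these groups, Traf1 differed by -0.099 and Relb by -0.14, and no gene was called. Dendritic cell markers were lower there as well, 7 of 10, and their part was not tested. After priming 19 of 22 were higher than in unimmunised CD4+ T cells and none lower, with a median of 0.97, where 23.3% of all genes and 10 of 11 T cell markers (median 1.06) were higher. Tolerisation against priming moved 1 of 22 in CD4+ T cells, Traf5, lower by 0.58 (adjusted p = 0.00071). The other TNF receptors of CD11c+ cells were split under abatacept against IgG, where 1560 of 10203 genes were called. Of 12 tested, 4 were lower, among them Fas (-2.50) and Cd40 (-1.86), and 3 higher, among them Tnfrsf14 (HVEM, 0.72). With the Eif2s3y covariate Fas gave -1.11, Cd40 -0.38 and Tnfrsf14 0.23, none of them called.

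The pattern of each member over arrays was also set against those of 10321 other genes by Pearson's r, as a description over arrays that share groups and tissues. Over the 15 CD4+ arrays Tnfrsf18 and Tnfsf8 were each other's nearest gene (r = 0.988). Tnfrsf4 was nearest to Hif1a (0.984), Adam19 and Agpat3, and Tnfsf11 to Synpo (0.99), Slamf6 and Syt11. Tnfrsf9 was nearest to Egr1 (0.985), Ephx1 and Nfatc1. The 4 other members correlated with each other at 0.952 to 0.988 and with Tnfrsf9 at 0.783 to 0.871. Over all 30 arrays the nearest genes were Dusp4 (0.975) for Tnfrsf4, Egr2 (0.936) for Tnfrsf9, Prkch (0.978) for Tnfrsf18, Dtx1 (0.983) for Tnfsf8 and Hectd2 (0.981) for Tnfsf11, and Ctla4 was among the nearest 3 of Tnfsf11 (0.977).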

How the data were processed

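RNA of CD4+ and CD11c+ cells, 50 ng a sample, was amplified and read on Affymetrix mouse arrays, per the labels' protocols. The values are deposited log2 intensities, summarised per probe set by the authors with RMA, per the submitters' processing notes; no RMA version is given there. From 45118 probe sets, the 28898 annotated with 1 symbol were used, and the brightest one stood for each gene. A gene was tested if it exceeded the median of the array on 3 or more of 15 arrays in that fraction (10322 genes in CD4+, 10203 in CD11c+, 10794 in either). Tests used limma 3.58.1 in R 4.3.3 (lmFit, eBayes, 2-sided) on the 15 arrays of a fraction, or on all 30 between fractions, and p was adjusted by Benjamini-Hochberg. The procedure was tested on simulated data. Since no label states that replicates are different mice, the p-values reflect the spread of these samples alone, which may be technical, and the few arrays limit precision.

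Members, lists, comparisons and alternatives were chosen with earlier results of these data known. Named were the 5 members, their 6 partners, up to 4 called genes of a list per comparison by smallest adjusted p, and each member's 3 most correlated genes. Equal replicate numbers did not pair arrays: deviations correlated at -0.23 to 0.28 within a fraction, and every pair exceeded 0.1 in 0 of 14 comparisons. Alternatives were other arrays in the fit, no filter, repeated quantile normalization, array weights, a replicate block, the mean of all probe sets, 2 covariates and single arrays left out. Promoters came from RefSeq (GRCm38.p6), and matplotlib 3.10.9 with Python 3.11.15 drew the figures.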

Additional observations from a re-analysis of the deposited data

Results flagged for a closer look

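The fitted differences between groups differed between the 2 cell fractions for 10 combinations of member and comparison, by limma's interaction test over all 30 arrays (CD4+ difference minus CD11c+ difference, log2). For primed against unimmunised mice the values were 2.42 for Tnfrsf4 (adjusted p = 1.3e-08), 0.87 for Tnfrsf9 (0.029), 2.02 for Tnfsf8 (1.6e-07) and 4.51 for Tnfsf11 (7.7e-09). For tolerised against unimmunised mice they were 2.75 for Tnfrsf4 (1.7e-09), 2.57 for Tnfrsf9 (4.1e-07), 2.35 for Tnfsf8 (1.4e-08) and 4.50 for Tnfsf11 (7.5e-09). The 4 values of Tnfsf8 and Tnfsf11 set a CD4+ change against a probe at background: both genes were tested only through their CD4+ arrays, so these values do not show unequal responses. Those of Tnfrsf4 rest on CD11c+ arrays at or near background. In both comparisons the CD4+ unimmunised arrays carried fewer T cell and more erythroid and neutrophil transcripts, and the part of this in the values was not tested. Tolerised against primed mice differed by 1.70 for Tnfrsf9 (0.00089), with 2.11 in CD4+ and 0.41 in CD11c+ cells. Eif2s3y differed between tolerised and primed mice in the CD11c+ fraction alone, and between tolerised and unimmunised mice in the CD4+ fraction alone. Xist differed between tolerised and primed mice in the CD4+ fraction as well, with means of 6.17 and 10.15. Abatacept against IgG differed by 1.59 for Tnfrsf9 (0.0012), with opposite signs in the 2 fractions: 0.88 for CD4+ and -0.71 for CD11c+. The CD4+ part was not called on the 2 groups alone (adjusted p = 0.051), with the replicate block (0.055) or without the unimmunised arrays (0.059). On the next brightest probe set the CD11c+ part was -0.63 and not called (adjusted p = 0.13 among all probe sets). The CD11c+ part was -0.41 with the mean of probe sets (0.052) and -0.37 with the Eif2s3y covariate (adjusted p = 1), a gene that differed between the groups in the CD11c+ fraction (2.37 to 2.72 under abatacept and 5.92 to 8.76 under IgG).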

How the results depend on the processing

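Of the member differences, 1281 kept their direction and side of the threshold under the alternatives, 27 lost a call, 11 gained one and 30 changed sign, the last all among differences that were not called or under the Eif2s3y covariate. The count of members called became 5 in CD4+ tolerised minus primed with quantile normalization again, and 5 in CD11c+ tolerised minus unimmunised and abatacept minus tolerised with no filter, which adds the 2 ligands. Both ligands lay at or near background in CD11c+ cells, so these counts with no filter are not a result about the members. In CD11c+ abatacept minus IgG the count of members called became 1 with the mean of all probe sets and 0 with the Eif2s3y covariate, as it became 0 in CD11c+ primed minus unimmunised. With that covariate the differences of Tnfrsf4 became -0.32 (primed minus unimmunised) and 0.007 (abatacept minus IgG), those of Fasl -0.41 (primed minus unimmunised), and those of Ltb and Tnfrsf11a 0.22 and 0.97 (abatacept minus IgG). The covariate differs between these groups, and level and group cannot be told apart. The replicate block ended 1 member call, Tnfrsf9 in CD4+ abatacept minus IgG (0.88, adjusted p = 0.055), and no other.

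Uncalled differences near 0 that changed sign were Tnfsf11 in CD4+ IgG minus primed (-0.059 with array weights, -0.002 with the mean of probe sets), Tnfrsf4 in CD11c+ abatacept minus unimmunised (-0.008 with array weights), Tnfrsf11a in CD11c+ abatacept minus IgG (0.066 with the mean of probe sets), Tnfrsf18 in CD11c+ IgG minus primed (0.23 with the salivary covariate, the mean of Amy1 and Bpifa2), Tnfrsf9 in primed CD4+ minus CD11c+ (0.039 with the mean of probe sets) and the tolerised minus primed interaction of Tnfsf11 (0.032, 0.17 and 0.33 with quantile normalization, array weights and the mean of probe sets).

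With single arrays left out, sign changes gave these ranges. In CD4+ T cells they were -0.85 to 0.058 for Tnfsf4 in abatacept minus tolerised, and in IgG minus primed -0.21 to 0.029 for Tnfsf8, -0.21 to 0.14 for Tnfsf11 and -0.26 to 0.071 for Tnfsf4. In CD11c+ cells they were -0.32 to 0.05 for Tnfrsf11a in abatacept minus IgG, -0.099 to 0.036 in abatacept minus unimmunised and -0.099 to 0.15 in tolerised minus primed, and -0.021 to 0.10 for Tnfrsf4 in abatacept minus unimmunised. Between fractions they were -0.007 to 0.062 for Tnfrsf4 in unimmunised and -0.45 to 0.031 for Tnfrsf9 in primed mice. Interactions ranged from -0.11 to 0.30 for Tnfrsf18 in abatacept minus IgG, and in tolerised minus primed from -0.26 to 0.074 for Tnfrsf18, -0.25 to 0.45 for Tnfsf11 and -0.29 to 0.05 for Tnfrsf11a. The abatacept minus IgG interaction called 1 to 2 members. The call of Tnfrsf9 in the primed minus unimmunised interaction ended in 5 of 12 such fits (0.66 to 1.14).

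Counts over all genes moved by more than 1.5 times as follows. The fit on 2 groups gave 822 against 1514 in CD4+ tolerised minus primed, 1107 against 2408 in CD4+ abatacept minus tolerised, and 110 against 290 in CD11c+ tolerised minus primed. Array weights gave 2696 against 1560 in CD11c+ abatacept minus IgG, where the salivary covariate gave 958, 2515 against 1548 in its interaction, 532 in CD11c+ tolerised minus primed, 15 against 9 in CD4+ and 150 against 2 in CD11c+ IgG minus primed, which the other settings put at 0 to 50. In CD11c+ abatacept minus unimmunised 239 became 139 (quantile), 91 (2 groups) and 143 (salivary). With the Eif2s3y covariate 0 were called in CD11c+ abatacept minus IgG, tolerised minus primed and primed minus unimmunised (3941 without it). Single arrays left out gave 1036 to 1918 against 1722 in CD4+ and 524 to 1826 in CD11c+ abatacept minus IgG, 1015 to 1708 in their interaction, 997 to 1580 in CD4+ and 76 to 404 in CD11c+ tolerised minus primed, 54 to 287 in CD11c+ abatacept minus unimmunised and 0 to 2 in CD11c+ IgG minus primed. The cause was not tested.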
